A study of Mus musculus with 12 samples.

Results

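Heat shock proteins and their cochaperones were followed through all 12 liver libraries of a series on glucocorticoid action in female mice. The 10 members were taken by gene symbol: Hspa1a, Hspa1b, Hspb1, Hsph1, Dnajb1, Hspa8, Hsp90aa1, Hspd1, Hspe1 and Bag3. They are 10 of the 24033 symbols in the deposited table, each is present as 1 row, and all 10 were among the 12965 genes that were abundant enough to be tested. All animals were wild-type C57BL/6 females. They were gonadally intact or ovariectomized (their ovaries removed, called hypogonadal by the submitters), and they received either PBS, the vehicle, or dexamethasone, a synthetic ligand of the glucocorticoid receptor, at 1 mg/kg. Livers were taken after 6 h. The 4 groups, intact vehicle, intact dexamethasone, ovariectomized vehicle and ovariectomized dexamethasone, hold 3 libraries each. The labels give no age and do not state that replicate libraries come from separate animals, so p-values measure the spread between these libraries. The 2 by 2 design asks what dexamethasone changed in each gonadal state, what ovariectomy changed under each treatment, and whether the 2 dexamethasone responses differed.

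Heat shock proteins bind unfolded or partly folded proteins. Members of the HSP70 family hold client proteins in a cycle driven by ATP, in which J-domain proteins deliver clients and nucleotide exchange factors such as the HSP110 and BAG proteins release them. HSP90 acts on nearly mature clients, among them the glucocorticoid receptor, which is kept in a hormone-binding state by HSP90, HSP70 and cochaperones such as Ptges3 (p23). Small heat shock proteins hold unfolded proteins without ATP, and HSP60 with its partner HSP10 folds proteins inside mitochondria. Many of these genes are induced together by heat shock factor 1 (Hsf1), which binds repeats of the half-sites GAA and TTC upstream of them.

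The upstream sequences of the members that the results below turn on show how these repeats are placed, and how alike the 2 inducible HSP70 genes are. They are the 250 bases before the annotated start, on the strand of the gene, from RefSeq on build GRCm38.p6, which is not the build the files used (mm9). Such a sequence was at hand for 8 of the 10 members. Capitals mark GAANNTTC, 2 half-sites facing each other, where N is any base. The first 2 sequences are those of the inducible HSP70 pair, Hspa1a at chr17:34972157-34972406 and Hspa1b at chr17:34959239-34959488, both on the minus strand. The third is that of the small heat shock protein Hspb1, at chr5:135887669-135887918 on the plus strand.
Hspa1a: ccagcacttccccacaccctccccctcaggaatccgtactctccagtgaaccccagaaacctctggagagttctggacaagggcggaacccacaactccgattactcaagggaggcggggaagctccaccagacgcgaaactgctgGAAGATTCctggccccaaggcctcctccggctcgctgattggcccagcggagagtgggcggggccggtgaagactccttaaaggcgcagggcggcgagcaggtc
Hspa1b: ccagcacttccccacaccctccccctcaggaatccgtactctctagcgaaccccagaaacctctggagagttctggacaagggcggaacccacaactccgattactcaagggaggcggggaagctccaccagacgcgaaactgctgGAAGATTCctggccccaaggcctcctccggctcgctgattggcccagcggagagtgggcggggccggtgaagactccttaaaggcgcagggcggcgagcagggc
Hspb1: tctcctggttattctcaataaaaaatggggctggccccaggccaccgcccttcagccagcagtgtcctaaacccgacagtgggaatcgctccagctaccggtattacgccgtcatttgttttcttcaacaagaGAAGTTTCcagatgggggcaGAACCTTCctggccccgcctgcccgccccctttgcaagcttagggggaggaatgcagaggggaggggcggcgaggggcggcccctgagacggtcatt

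The Hspa1a and Hspa1b windows were identical at 247 of 250 bases (98.8%). Each held 1 match, GAAGATTC, at the same place, 104 to 97 bases before the start. Hspb1 held 2 matches, GAAGTTTC at 117 to 110 bases and GAACCTTC at 97 to 90 bases before its start. The mitochondrial pair Hspe1 and Hspd1 lie head to head on chromosome 1, and their windows, with the second annotated start of Hspd1, share 215 bases. Within the shared stretch lies an 18-base run that matches the longer heat shock element GAANNTTCNNGAA in 2 overlapping places. It is printed here with 6 bases on either side, on the strand of Hspe1, at chr1:55088053-55088082, with the run in capitals.
Hspe1: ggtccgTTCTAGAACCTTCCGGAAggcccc

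Both strands of the 32851 RefSeq windows of the same length were searched for each motif. GAANNTTC was found in 6.69% of all windows, the other phase of the paired half-sites, TTCNNGAA, in 7.17%, and the longer GAANNTTCNNGAA, which contains GAANNTTC and TTCNNGAA and overlaps both, in 0.466%. Counted by gene, with a match in any window, these shares were 7.73%, 8.11% and 0.514%. Among the 8 members, 6 held paired half-sites in one phase or the other, for which no joint share was taken. Of these, 2, Hspd1 and Hspe1, held the longer element, at the same shared site. Hsph1 held TTCTCGAA at 33 to 26 bases before its first start, and Bag3 and Dnajb1 held neither motif. The palindrome GNACANNNTGTNC, the form of the glucocorticoid response element searched for, was found in 0 of the 8 members and in 0.44% of genes (0.387% of windows). These are matches of letters and not measured binding.

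The deposited values are labelled as log2 normalized values made from read counts per gene, and the exact transformation is not stated. The lowest value was -2.22, and 6294 of the 24962 rows stood at 0 in every library. Linear values, their sums and ratios, and values per kilobase below take the deposited values as plain log2 counts. Counts per library were not recoverable, so depth is unknown. Rows of the lowest values are nearly constant between libraries, but this did not hold at the level of the low members Hspa1a and Hspb1. Genes of similar level had a median within-group standard deviation of 0.155 for Hspa1a and 0.149 for Hspb1. At the levels of the other members it was 0.081 to 0.094. Whether changes of Hspa1a and Hspb1 are understated was not tested. Median log2 values over all genes tested were 8.82 to 8.86 in the 12 libraries. Albumin, the main product of hepatocytes, stood at 21.59 to 22.03, and all 8 hepatocyte markers checked had values of 13.62 or more in every library. In whole liver, fewer cells of a type and less RNA per cell cannot be told apart.

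Levels of the members were compared after dividing by transcript length, since longer transcripts collect more reads. On this log2 value per kilobase, averaged over the 12 libraries, the order was led by the mitochondrial and constitutive chaperones. Hspd1 stood at 11.69, Hspa8 at 11.36 and Hspe1 at 11.12. A middle group followed, with Bag3 at 8.42, Hsp90aa1 at 8.40, Hsph1 at 8.16, Dnajb1 at 7.74 and Hspa1b at 7.44. The neighbours Bag3 and Hsp90aa1 differed by less than the larger of their within-group standard deviations, and so did Hsp90aa1 and Hsph1, and Dnajb1 and Hspa1b. Hspb1 stood at 6.09 and Hspa1a, the lowest, at 3.96. Of the 10 members, 7 share at least 20% of their 50-base words with other annotated genes or pseudogenes: Hspa8 (74.8%), Hspa1a (66.3%), Hspa1b (62.3%), Hsp90aa1 (58.5%), Hspb1 (51.6%, with the pseudogene Hsp25-ps1), Hspd1 (44.8%) and Hspe1 (44.8%). How reads common to several copies were counted is not given in the sources used here, so the levels of these 7 are uncertain. Dnajb1 shares 0.4%, and Hsph1 and Bag3 share 0%.

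**Figure D1:**
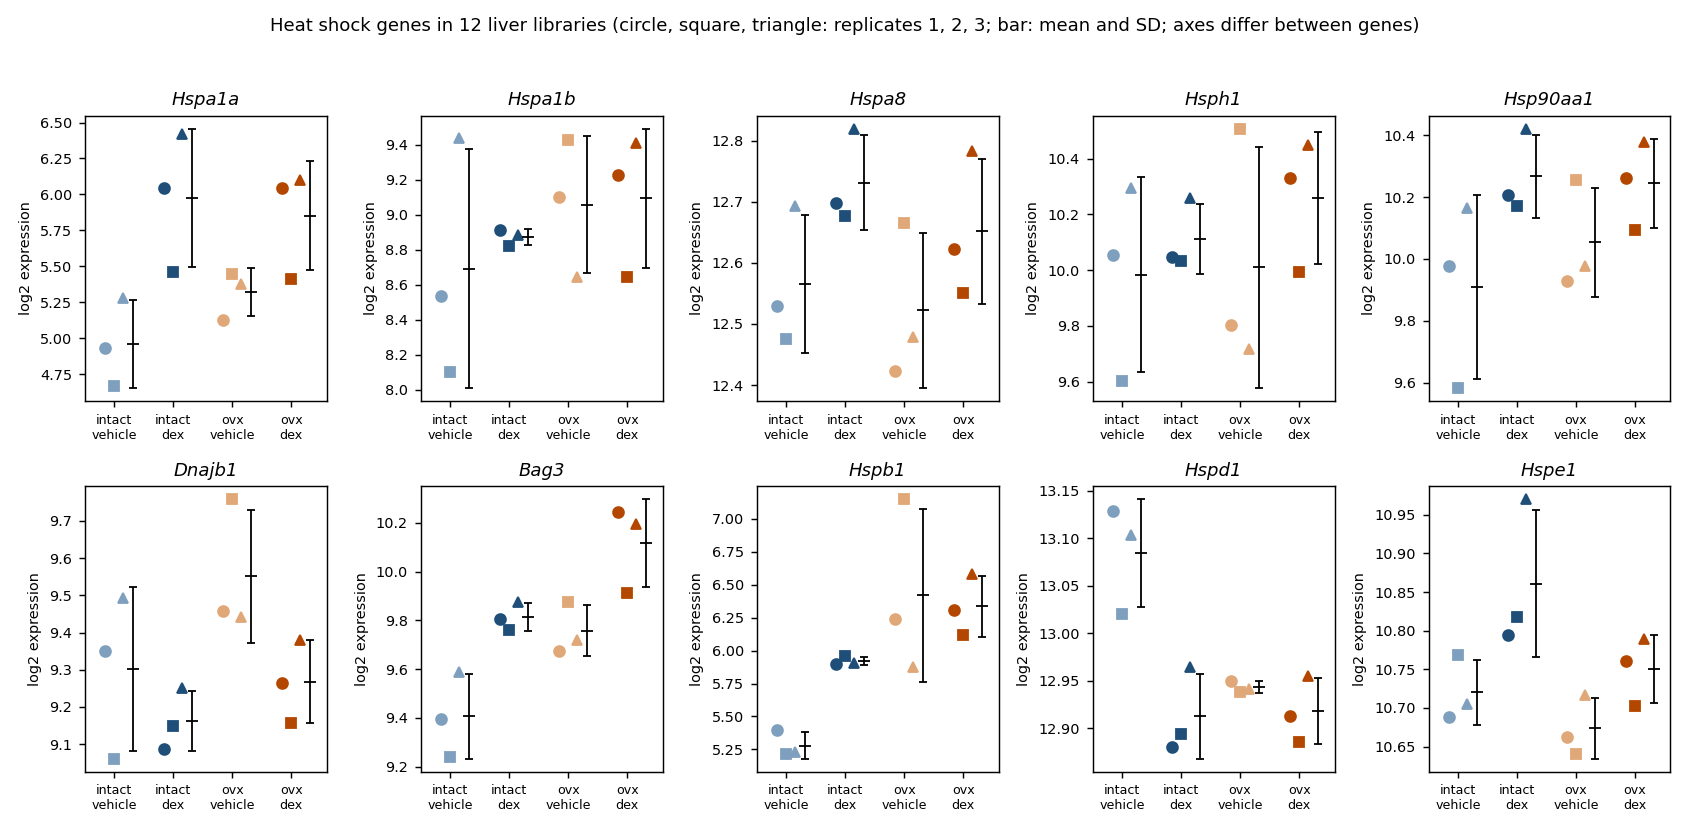
Deposited log2 values (vertical axis) of the 10 members in the 12 libraries. Each point is 1 library, placed by group, and its marker (circle, square, triangle) gives the replicate number; bars show the mean and SD of the 3 libraries, dex is dexamethasone, ovx ovariectomized, and axes differ between genes. Bag3 rises with dexamethasone in both gonadal states, and the Hspb1 libraries of intact vehicle lie below all others.

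Among the inducible members, libraries of the same group differed from each other more than is usual for genes of their level. The within-group standard deviation of the log2 value, pooled over the 4 groups, was 0.44 for Hspa1b, a percentile of 99.4 among genes whose mean lies within 0.5 of its own. Hsph1 had 0.31 (percentile 98.1), Hspb1 0.35 (95.6), Hspa1a 0.35 (94.8) and Hsp90aa1 0.20 (92.9). The mitochondrial chaperones were the steadiest, at 0.060 for Hspe1 (percentile 26.1) and 0.040 for Hspd1 (percentile 4.40). Fold changes of the inducible members accordingly have wide errors.

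Most members also deviated together. For each gene the group mean was subtracted in every library, and the deviations of member pairs were correlated over the 12 libraries, which share those means and whose depths are unknown. Of the 45 pairs, 41 had a positive Pearson r, with a median of 0.65 and a range from -0.21 to 0.97. The negative pairs were those of Hspe1 with Dnajb1, Hsph1, Hspa1b and Hspb1. Hspe1 had a median r of 0.07 with the other members and so did not share the pattern. Among the 8 members of the cytosol, all 28 pairs were positive, with a median of 0.82. Dnajb1 with Hsp90aa1 and Dnajb1 with Hsph1 each reached 0.97, and of 12964 other genes tested, Dnajb1 had the highest r with Hsp90aa1 and with Hsph1. On the log2 values themselves, which keep the group differences, r was 0.24 for Dnajb1 with Hsp90aa1 and 0.46 for Dnajb1 with Hsph1. These correlations describe 12 libraries and carry no test.

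In 10 of the 12 libraries, spread over all 4 groups, at least 8 of the 10 members lay on the same side of their group means. In ovariectomized dexamethasone replicate 2 all 10 members were below their group mean, with a median deviation of -0.18, and in replicate 3 of that group all 10 were above, with a median of 0.13. Intact vehicle replicate 2 had 9 of 10 below (median -0.20) and replicate 3 had 8 of 10 above (median 0.19). In ovariectomized vehicle, replicate 2 had 8 of 10 above (median 0.17), while replicates 1 and 3 each had 8 of 10 below. In intact dexamethasone, replicate 1 had 8 below, replicate 2 had 9 below and replicate 3 had 9 above, with smaller medians of -0.03, -0.05 and 0.09. The median deviation over all genes was at most 0.01 in size in every library, which the normalization of the deposited values brings about. A library's high or low heat shock genes therefore enter every comparison below, and values without such a library are given where they change a call.

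**Figure D2:**
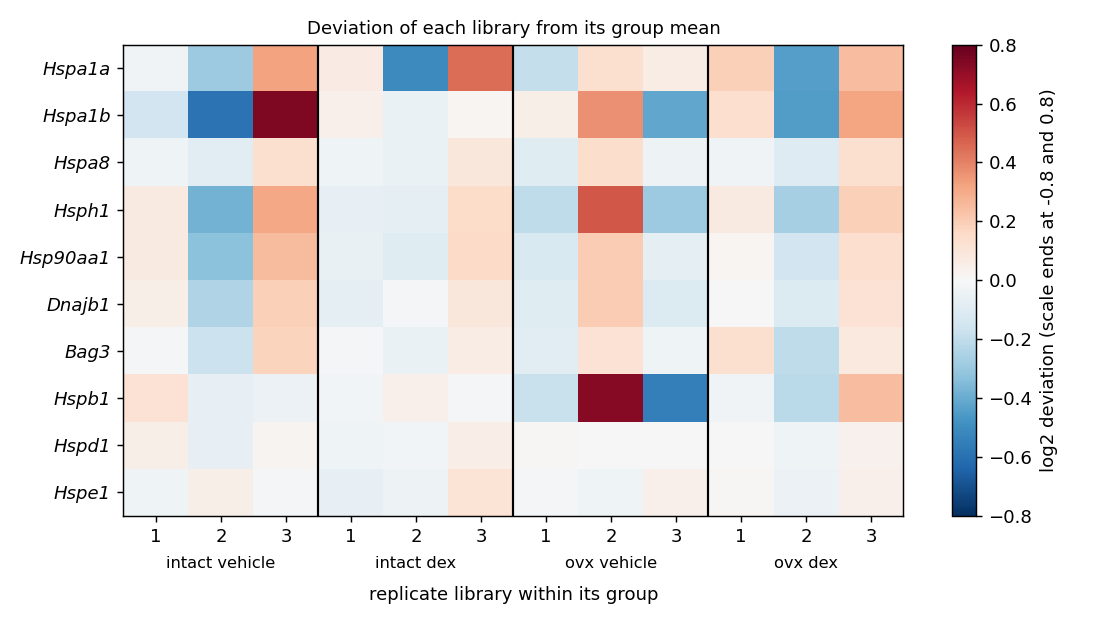
Deviation of each member from its group mean (log2, colour scale; rows are members, columns are the 12 libraries). The columns of ovariectomized dexamethasone replicates 2 and 3 are low and high for all 10 members, and the rows of Hspe1 and Hspd1 stay near 0.

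Dexamethasone in intact females raised 5 of the 10 members and lowered 1 (limma, adjusted p under 0.05 over all genes tested). In this comparison 48.8% of all genes passed, 22.8% higher and 25.9% lower, so 6 of 10 is near the background. Leaving out any 1 of the 12 libraries gave 2 to 4 higher, never 5, and 1 lower. Hspa1a, Hspb1, Bag3, Hsp90aa1 and Hspe1 rose, and Hspd1 fell. The median log2 change of the 10 was 0.17, beside 0.00128 over all genes. In ovariectomized females dexamethasone raised 1 member, Bag3, and lowered 0, where 40.7% of all genes passed, 21.3% higher and 19.4% lower. The share of members called there lies below that of all genes, and the members' median change was 0.10. Hspa1b, Hsph1, Hspb1, Hspa1a and Hsp90aa1 spread within groups at percentiles of 92.9 to 99.4 for their level. A change of the same size is harder to call in them, while Hspd1 and Hspe1 spread less than most genes. At an unadjusted p under 0.05, 6 of the 10 passed in intact females and 2 in ovariectomized females.

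Ovariectomy under vehicle raised 2 members, Hspb1 and Bag3, and lowered Hspd1, where 27.9% of all genes passed, 12.4% higher and 15.5% lower. The count of 3 of 10 is near that background, and the members' median change was 0.20. Under dexamethasone, ovariectomized and intact females differed in 0 of 10 members by limma at an adjusted p under 0.05, where 12.8% of all genes passed, 7.74% higher and 5.08% lower. Of those, 1004 genes were higher and 658 lower; leaving out 1 library gave 145 to 1130 higher and 62 to 722 lower, with the lowest without ovariectomized dexamethasone replicate 3, then without intact dexamethasone replicate 1 (204 and 108). One member, Bag3, had an unadjusted p under 0.05 there, and with the libraries weighted by their spread 2 members were called. These library weights were uneven. Intact dexamethasone replicate 1 had 7.25, beside 0.57 and 0.33 for replicates 2 and 3. Ovariectomized vehicle replicate 1 had 3.61, beside 0.58 and 0.71. Calls made with library weights, here and below, therefore lean on single libraries in these groups. The difference between the 2 dexamethasone responses passed for 0 of 10 members, where 24.9% of all genes passed, 15.3% higher and 9.65% lower. There 1 member, Hspd1, had an unadjusted p under 0.05, and with library weights it was called. The 4 comparisons share groups, so their values for a member are set side by side without a measure of overlap.

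**Figure D3:**
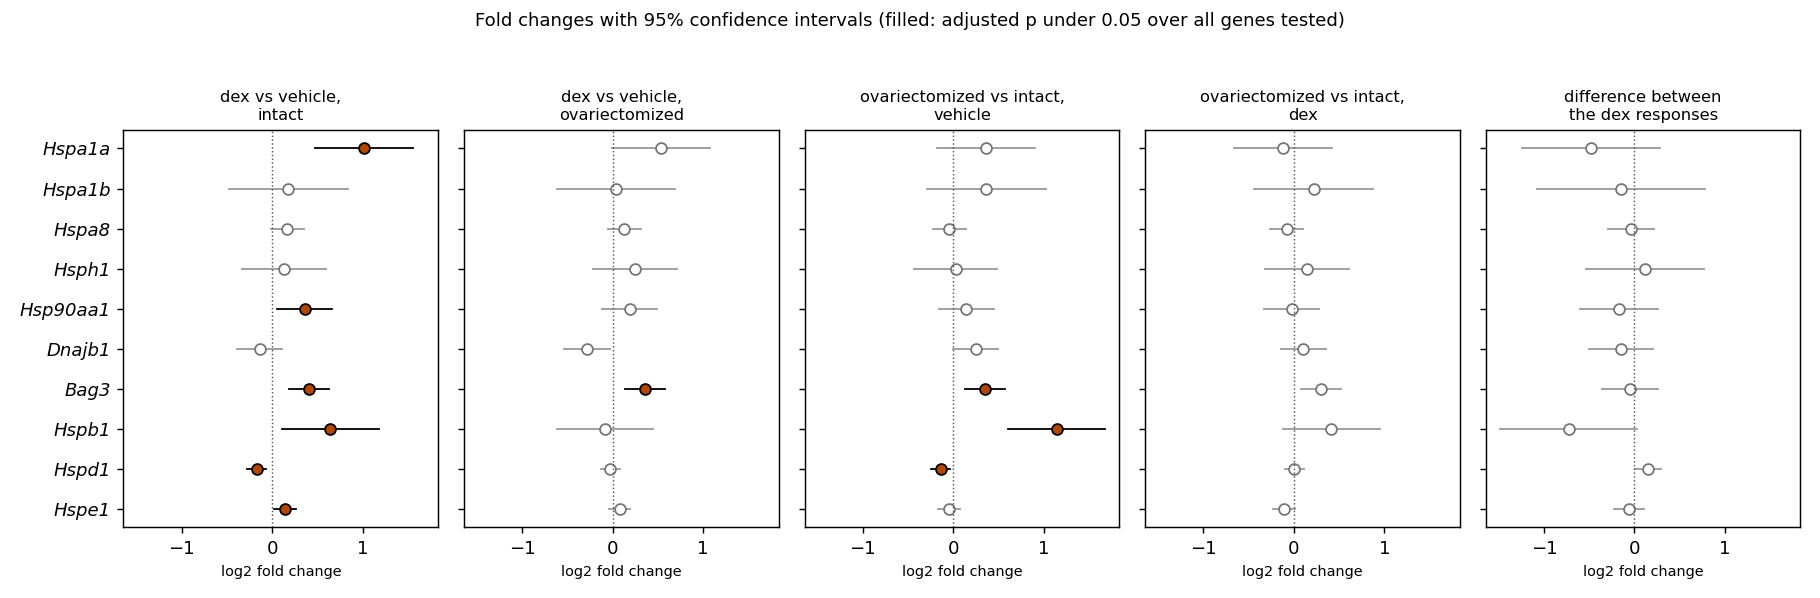
Log2 change of each member in the 4 comparisons between groups and in the difference between the dexamethasone responses (horizontal axis; points are limma estimates, bars their 95% confidence intervals, filled points passed at an adjusted p under 0.05). Bag3 lies above 0 in all 4 comparisons between groups, and the intervals of Hspa1b and Hsph1 span 0 throughout.

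Bag3, a cochaperone that exchanges nucleotide on HSP70 and carries clients to autophagy, had the steadiest response. Its log2 values were 9.40, 9.24 and 9.59 in intact vehicle and 9.81, 9.76 and 9.88 in intact dexamethasone. They were 9.67, 9.88 and 9.72 in ovariectomized vehicle and 10.24, 9.91 and 10.20 in ovariectomized dexamethasone. Each dexamethasone library was above every vehicle library of the same gonadal state, and every ovariectomized library above every intact library of the same treatment. In intact females the rise was 0.41 ± 0.10 (log2 change ± SE, n = 3 a group; adjusted p = 0.00593 by limma), and it passed in all 23 alternative analyses (adjusted p 0.00227 to 0.0251). In ovariectomized females it was 0.36 ± 0.10 (limma, adjusted p = 0.0145). That call was lost in 3 of 23 alternatives: without ovariectomized vehicle replicate 1 (adjusted p = 0.0584), without ovariectomized dexamethasone replicate 1 (0.0600) and without its replicate 3 (0.0559).

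The effect of ovariectomy on Bag3 was of similar size. Under vehicle it was 0.35 ± 0.10 (limma, adjusted p = 0.0238), a call lost in 4 of 23 alternatives, namely without intact vehicle replicate 1 (0.0700) or 2 (0.0748), without ovariectomized vehicle replicate 2 (0.0860) and with the trend in length and GC content removed (0.0848). Under dexamethasone the difference was 0.30 ± 0.10 and did not pass (limma, adjusted p = 0.0685), but it did without ovariectomized dexamethasone replicate 2 (0.41, adjusted p = 0.0361) and with library weights (0.33, adjusted p = 0.00372). The 2 dexamethasone responses of Bag3 differed by -0.05, with a 95% confidence interval from -0.36 to 0.26. Intact vehicle was thus the lowest group and ovariectomized dexamethasone the highest, and the 2 groups with 1 of the 2 treatments overlapped.

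Hspa1a encodes one of the 2 nearly identical stress-inducible HSP70 proteins. Its log2 values were 4.93, 4.67 and 5.28 in intact vehicle, and 6.04, 5.46 and 6.42 in intact dexamethasone. The ovariectomized vehicle libraries had 5.13, 5.45 and 5.38, and the ovariectomized dexamethasone libraries 6.04, 5.41 and 6.10. In intact females no libraries overlapped, while in ovariectomized females dexamethasone replicate 2 lay within the vehicle libraries. The rise in intact females was 1.02 ± 0.25, about 2.02-fold (limma, adjusted p = 0.00528). In ovariectomized females the change was 0.54 ± 0.25 and did not pass (limma, adjusted p = 0.103). It passed without dexamethasone replicate 2 (0.75, adjusted p = 0.0350), with the replicate numbers as a block (adjusted p = 0.0381) and with library weights (0.73, adjusted p = 0.00532). The responses in the 2 gonadal states differed by -0.48, with an interval from -1.25 to 0.28, which did not pass.

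Hspa1b, the other gene of the pair, did not pass in any of the comparisons. Intact vehicle had 8.54, 8.10 and 9.44 and intact dexamethasone 8.91, 8.82 and 8.89. Ovariectomized vehicle had 9.10, 9.43 and 8.64 and ovariectomized dexamethasone 9.23, 8.65 and 9.41. The groups overlapped throughout, and the 3 intact vehicle libraries alone spanned the whole range of the 12. The change with dexamethasone was 0.18 ± 0.30 in intact females (95% confidence interval -0.48 to 0.84; limma, adjusted p = 0.645) and 0.04 ± 0.30 in ovariectomized females (-0.62 to 0.69; 0.935). These intervals include a change as large as that of Hspb1 in intact females.

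The split of reads between the 2 genes bears on the Hspa1a result. The linear value of Hspa1b was 12.2, 10.8 and 17.9 times that of Hspa1a in intact vehicle, and 7.31, 10.2 and 5.52 times in intact dexamethasone. In the ovariectomized groups it was 15.7, 15.8 and 9.63 times under vehicle and 9.10, 9.39 and 9.89 times under dexamethasone. The intact dexamethasone libraries were below all intact vehicle libraries in this ratio. When the linear values of the pair were summed into 1 gene, the change with dexamethasone in intact females was 0.26 and did not pass (limma, adjusted p = 0.485), which is close to the 0.18 of Hspa1b because Hspa1b makes up most of the sum. The other 22 alternatives kept the Hspa1a call. Since 58.8% of the 50-base words of Hspa1a occur in Hspa1b, how far the Hspa1a rise depends on the assignment of shared reads was not tested.

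Hspa8, the constitutive HSP70 of the cytosol and the most abundant cytosolic member per length, had log2 values between 12.42 and 12.82 in all libraries. Its changes with dexamethasone were 0.17 ± 0.083 in intact females (limma, adjusted p = 0.121) and 0.13 ± 0.083 in ovariectomized females (0.236). The groups overlapped in both comparisons. The first passed after quantile normalization (0.30, adjusted p = 0.0118) and the second with library weights (0.24, adjusted p = 0.0124). Ovariectomy gave -0.04 under vehicle and -0.08 under dexamethasone, and neither passed.

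Hsph1, an HSP110 protein that acts as exchange factor for HSP70, ranged from 9.60 to 10.51. Both extremes were vehicle libraries, intact replicate 2 and ovariectomized replicate 2. None of its comparisons passed. The changes with dexamethasone were 0.13 ± 0.21 in intact females and 0.25 ± 0.21 in ovariectomized females, with intervals from -0.33 to 0.59 and from -0.21 to 0.71. The second passed with library weights (0.45, adjusted p = 0.0305). Ovariectomy gave 0.03 under vehicle and 0.15 under dexamethasone.

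Dnajb1 (HSP40), the J-domain partner of the inducible HSP70s, was the one cytosolic member with lower values under dexamethasone in both gonadal states. In ovariectomized females the vehicle libraries had 9.46, 9.76 and 9.44 and the dexamethasone libraries 9.26, 9.16 and 9.38. These groups did not overlap, but the change of -0.28 ± 0.11 did not pass (limma, adjusted p = 0.0652). It passed when libraries were recentred (-0.31, adjusted p = 0.0412), after quantile normalization (-0.32, 0.0395) and without intact vehicle replicate 2 (0.0313). In intact females, with values of 9.35, 9.06 and 9.49 under vehicle and 9.09, 9.15 and 9.25 under dexamethasone, the groups overlapped and the change was -0.14 ± 0.11 (limma, adjusted p = 0.333), which passed with library weights (-0.30, adjusted p = 0.00492).

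Hsp90aa1, the inducible form of HSP90, rose in intact females by a margin that just passed. Vehicle libraries had 9.98, 9.58 and 10.16 and dexamethasone libraries 10.21, 10.17 and 10.42. The groups did not overlap, but the lowest dexamethasone library, 10.17, stood next to the highest vehicle library, 10.16. The change was 0.36 ± 0.14 (limma, adjusted p = 0.0499). The call was lost in 16 of 23 alternatives (adjusted p 0.0163 to 0.201 over all 23). Of the 12 that leave out 1 library it held without intact vehicle replicate 3 or ovariectomized vehicle replicate 2 only, and without intact vehicle replicate 2, the lowest library, the change was 0.20 (adjusted p = 0.201). In ovariectomized females the libraries ranged from 9.93 to 10.26 under vehicle and from 10.09 to 10.38 under dexamethasone, a change of 0.19 ± 0.14 that did not pass (limma, adjusted p = 0.295) and passed with library weights (0.31, adjusted p = 0.0226).

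Hspb1 (HSP25 in mice), the small heat shock protein of the list, showed the largest change of any member with ovariectomy. Its values were 5.39, 5.21 and 5.23 in intact vehicle and 6.24, 7.15 and 5.87 in ovariectomized vehicle. The 2 groups did not overlap, and ovariectomized vehicle replicate 2 was the highest of all 12 libraries. The change was 1.14 ± 0.25, about 2.21-fold (limma, adjusted p = 0.00618), and it passed in all 22 alternatives in which Hspb1 was tested, at 0.78 to 1.41 (adjusted p 0.000794 to 0.0337). The SE rests on a spread pooled over the 4 groups, but the SDs of Hspb1 were unequal. They were 0.10 in intact vehicle, 0.03 in intact dexamethasone, 0.66 in ovariectomized vehicle and 0.23 in ovariectomized dexamethasone. The pooled SE may thus be too small for comparisons with ovariectomized vehicle and too large between the intact groups. Under dexamethasone the intact libraries had 5.90, 5.96 and 5.90 and the ovariectomized libraries 6.31, 6.12 and 6.58. These also did not overlap, but the difference of 0.41 ± 0.25 did not pass (limma, adjusted p = 0.269), and it did with library weights (0.51, adjusted p = 0.0270).

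With dexamethasone in intact females Hspb1 rose by 0.64 ± 0.25 (limma, adjusted p = 0.0474). That call was lost in 17 of 22 alternatives, among them 10 of the 12 that leave out 1 library (adjusted p 0.0520 to 0.108); leaving out ovariectomized vehicle replicate 2 or 3 kept it. In ovariectomized females the change was -0.09 (interval -0.62 to 0.45; limma, adjusted p = 0.805), and the groups overlapped. The difference between its dexamethasone responses, -0.73 ± 0.35, was the largest of any member in size and did not pass (limma, adjusted p = 0.142; interval -1.48 to 0.03). It passed without ovariectomized vehicle replicate 3 (adjusted p = 0.0365).

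The mitochondrial pair, HSP60 (Hspd1) and its lid HSP10 (Hspe1), moved in opposite directions with dexamethasone in intact females. Hspd1 values were 13.13, 13.02 and 13.10 in intact vehicle and 12.88, 12.89 and 12.96 in intact dexamethasone. They were 12.95, 12.94 and 12.94 in ovariectomized vehicle and 12.91, 12.89 and 12.95 in ovariectomized dexamethasone. Intact vehicle was above the other 3 groups, which overlapped. Hspd1 fell by 0.17 on the log2 scale with dexamethasone in intact females (SE 0.047; limma, adjusted p = 0.00999), a call lost in 1 of 23 alternatives, quantile normalization (-0.00344, adjusted p = 0.959). It fell by 0.14 with ovariectomy under vehicle (limma, adjusted p = 0.0426), a call lost in 17 of 23 alternatives (adjusted p up to 0.145), among them 10 of the 12 that leave out 1 library. Those without intact vehicle replicate 2 or intact dexamethasone replicate 3 kept it. The difference between its dexamethasone responses, 0.15 ± 0.066, did not pass (limma, adjusted p = 0.124), and it did with library weights (0.20, adjusted p = 0.00546).

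Hspe1 had 10.69, 10.77 and 10.70 in intact vehicle and 10.79, 10.82 and 10.97 in intact dexamethasone, with no overlap. It rose by 0.14 ± 0.054 (limma, adjusted p = 0.0494). The call was lost in 16 of 23 alternatives, and of the 12 that leave out 1 library it held without intact vehicle replicate 2 or intact dexamethasone replicate 1 only (the others at adjusted p 0.0510 to 0.194). With the trend in length and GC content removed the change was -0.03. In the ovariectomized groups its values ranged from 10.64 to 10.79, and the change of 0.08 with dexamethasone did not pass (limma, adjusted p = 0.274). Ovariectomy under vehicle gave -0.05, which passed with the length and GC trend removed (-0.23, adjusted p = 0.0111).

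By separation alone, dexamethasone in intact females left no overlap for 5 higher members and 1 lower, where 55.5% of all genes did not overlap (26.9% higher, 28.6% lower). In ovariectomized females the count was 1 higher and 1 lower (54.6% of all genes, 28.1% higher and 26.5% lower). It was, with ovariectomy under vehicle 2 higher and 1 lower (45% of all genes, 20.7% higher and 24.4% lower), and with ovariectomy under dexamethasone 2 higher and 1 lower (34.1% of all genes, 19.5% higher and 14.6% lower). The 3 of 10 with ovariectomy under dexamethasone is near its background.

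Heat shock factors, the receptor and its most responsive cochaperone were read beside the members. Hsf1 rose with dexamethasone by 0.26 ± 0.076 in intact females (limma, adjusted p = 0.0141) and by 0.21 ± 0.076 in ovariectomized females (0.0442), and with ovariectomy under vehicle by 0.25 (0.0306). The first call was lost in 1 of 23 alternatives, the second in 15 and the third in 7. Hsf2, a second factor of the family, fell by 0.26 in intact females (limma, adjusted p = 0.0127) and by 0.45 in ovariectomized females (0.00075). The first call was lost in 2 of 23 alternatives, without intact vehicle replicate 1 (adjusted p = 0.0569) and without intact dexamethasone replicate 3 (0.0504), and the second in 0. Nr3c1, the glucocorticoid receptor itself, fell with dexamethasone by 0.57 in intact females (limma, adjusted p = 1.44e-05) and had -0.03 in ovariectomized females (0.636). Its starting levels differed: ovariectomy gave -0.43 under vehicle (limma, adjusted p = 0.000464) and 0.11 under dexamethasone (0.208). Fkbp5, a textbook glucocorticoid target that binds HSP90, rose with dexamethasone by 1.28 ± 0.22 in intact and 2.29 ± 0.22 in ovariectomized females. Ovariectomy gave Fkbp5 -0.59 under vehicle (limma, adjusted p = 0.0635) and 0.42 under dexamethasone (0.209), and neither passed. The largest change of a member with dexamethasone, 1.02 for Hspa1a in intact females, was below both changes of Fkbp5 with dexamethasone.

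The counts of the lists below stand beside shares over all genes of 48.8% (22.8% higher, 25.9% lower) with dexamethasone in intact females, 40.7% (21.3% and 19.4%) in ovariectomized females and 27.9% (12.4% and 15.5%) with ovariectomy under vehicle. Of 10 other J-domain proteins, dexamethasone raised 5 and lowered 2 in intact females and raised 6 and lowered 2 in ovariectomized females. Dnaja1, an HSP70 partner, led both, at 0.66 ± 0.066 and 0.79 ± 0.066 (limma, adjusted p = 2e-05 and 9.12e-06), while the related Dnajb4 fell by 0.36 in ovariectomized females. Of 15 genes for HSP90 beta and HSP90 cochaperones, 5 rose and 4 fell in intact females and 6 rose and 0 fell in ovariectomized females. Unc45a, a myosin chaperone, rose by 0.74 and Ptges3 by 0.50 in intact females, and Chordc1 by 0.50 in ovariectomized females. The median changes of these 2 lists with dexamethasone lay between -0.01 and 0.16.

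Among 7 other HSP70 and HSP110 genes, 3 rose and 1 fell in intact females, and 4 rose and 0 fell in ovariectomized females. Hspa1l, which lies beside Hspa1a and shares 71.4% of its 50-base words with other genes, rose by 0.89 and 0.35, and Hspa4l fell by 0.54 in intact females. Of 6 genes listed as small heat shock proteins besides Hspb1, 4 were abundant enough to be tested. Dexamethasone raised 2 and lowered 0 of them in intact females, and raised 1 and lowered 1 in ovariectomized females. Hspb8, the partner of Bag3, rose in both gonadal states, by 0.45 ± 0.11 and 0.85 ± 0.11 (limma, adjusted p = 0.00613 and 0.000198). The gene that fell in ovariectomized females, by 0.67, was Hspb11, which was listed by its symbol only (limma, adjusted p = 0.000896). Of 6 other exchange factors and BAG proteins, Bag5 rose by 0.27 and 0.33, and Bag4 fell by 0.22 in intact females. The chaperonin TRiC and prefoldin, 14 genes, had 7 rising and 1 falling in intact females and 6 rising and 1 falling in ovariectomized females, with Pfdn4 at 0.49 in the first and Cct2 at 0.38 in the second.

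Of 14 other mitochondrial chaperones and proteases, dexamethasone raised 3 and lowered 7 in intact females, with a median change of -0.14 (3 lowered after quantile normalization), and raised 6 and lowered 1 in ovariectomized females. Dnaja3, a mitochondrial J-domain protein, rose by 0.54 and 0.82, and Clpx, an unfoldase of the matrix, by 0.38 and 0.87. With ovariectomy under vehicle 1 rose and 4 fell, among them the mitochondrial HSP70 Hspa9, which fell by 0.19. That call was lost in 7 of 23 alternatives, 5 of them leaving out 1 library of the 2 groups compared (each except intact vehicle replicate 2; adjusted p 0.0506 to 0.0901), and the count of 4 became 1 to 4 when 1 library was left out. Of 15 chaperones of the endoplasmic reticulum, 4 rose and 4 fell in intact females and 9 rose and 0 fell in ovariectomized females. Manf rose by 0.92 and 0.95 and Creld2 by 0.67 and 0.97, both secreted proteins of the unfolded protein response.

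**Figure D4:**
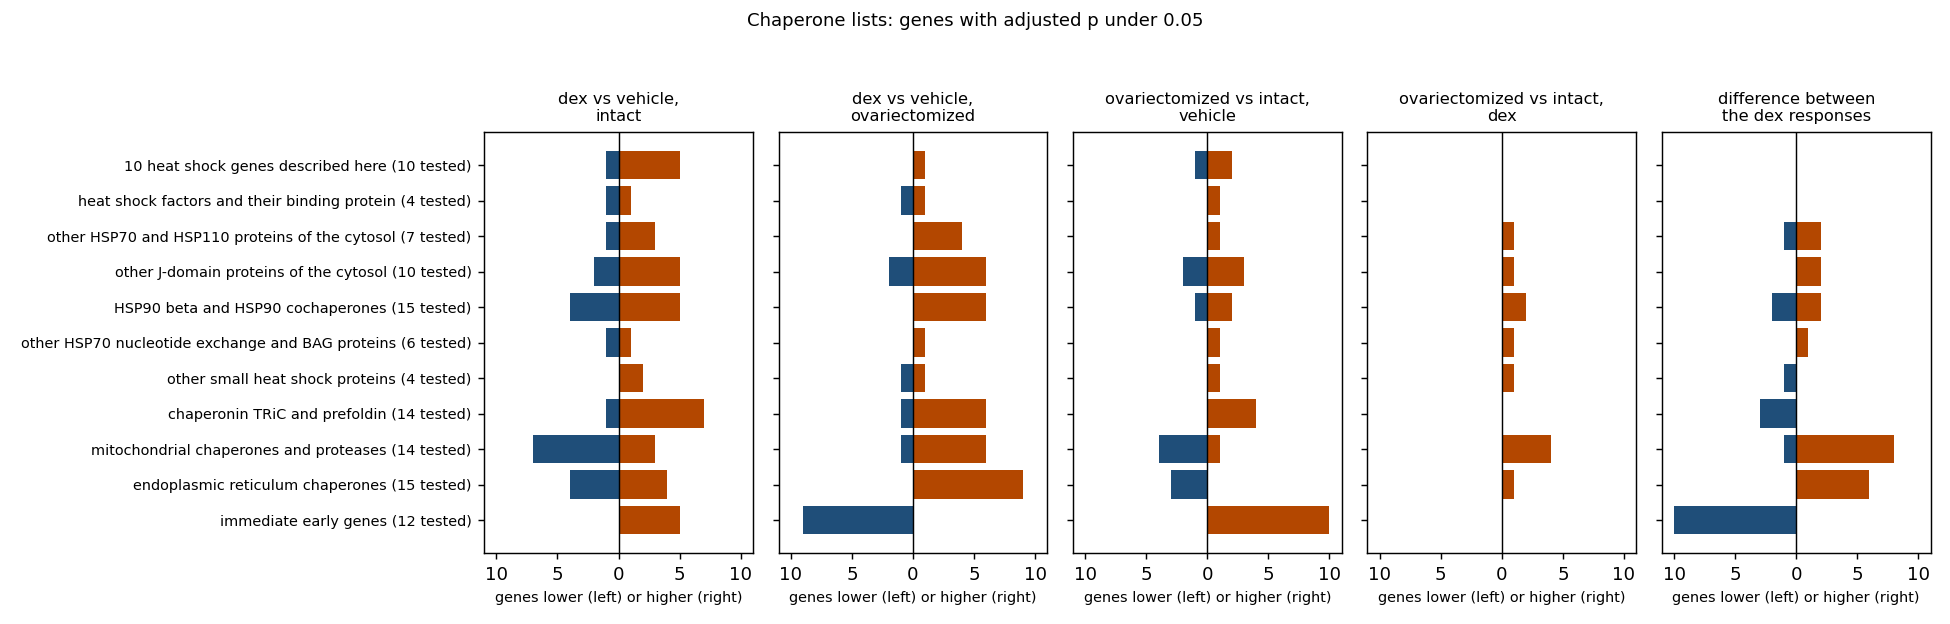
Genes called in each list (horizontal axis, counts; higher to the right, lower to the left) for the 5 comparisons, with the number tested beside each list. The members have 5 and 1 with dexamethasone in intact females and 1 and 0 in ovariectomized females, and the immediate early genes have 10 higher with ovariectomy under vehicle.

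Genes of other kinds moved between the same groups. Of 12 immediate early genes, which respond within minutes to many stimuli, 10 rose and 0 fell with ovariectomy under vehicle (Nr4a1 by 4.64 ± 0.28), and in ovariectomized females dexamethasone lowered 9 and raised 0. In intact females the direction was opposite: dexamethasone raised 5 of these 12 genes, Dusp1 most, by 1.88, and lowered 0. Their summed level, as log2, was 12.27 to 12.39 in intact vehicle, 12.67 to 13.01 in intact dexamethasone, 13.04 to 13.76 in ovariectomized vehicle and 12.44 to 12.72 in ovariectomized dexamethasone. Hspb1 and Bag3 rose with ovariectomy in the same vehicle libraries. Within that group, ovariectomized vehicle replicate 2 had the lowest immediate early sum of its group, 13.04, and the highest Hspb1 and Bag3. The part of these genes in the result was not tested.

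Markers of other liver cells also shifted. The summed stellate and fibroblast markers were at 12.89 to 13.29 in intact vehicle and 13.49 to 13.71 in intact dexamethasone, where 4 of 7 rose. The sinusoidal endothelial sum was 12.80 to 12.93 in intact vehicle and 13.17 to 13.62 in intact dexamethasone. Its 7 markers were not alike: 3 rose there, among them Lyve1 by 1.56, and 1, Kdr, changed by -0.46. In ovariectomized females dexamethasone raised 2 of the 7 and lowered 2. The macrophage sum was 13.76 to 13.82 in intact vehicle against 13.47 to 13.60 in intact dexamethasone, with 4 of 8 markers falling. With ovariectomy under vehicle 6 of 8 macrophage markers fell, and their sum in ovariectomized vehicle was 13.29 to 13.52. The leukocyte sum was 9.27 to 9.55 in intact vehicle, 8.95 to 9.13 in intact dexamethasone, 9.26 to 9.39 in ovariectomized vehicle and 8.80 to 8.90 in ovariectomized dexamethasone, and the cholangiocyte sum was highest in ovariectomized vehicle, at 11.41 to 11.68, beside 10.91 to 11.27 in the other groups. The hepatocyte sum, most of it albumin, was 21.98 to 22.37 in the 12 libraries. Of the 8 hepatocyte markers, dexamethasone raised 4 and lowered 0 in intact females and raised 6 and lowered 0 in ovariectomized females, where Cps1 rose by 1.38, Tat by 1.02 and Hnf4a by 0.81, and with ovariectomy under vehicle 2 rose and 2 fell. The part of these cells in the members' changes was not tested.

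The genes whose values ran most like those of 3 members over the 12 libraries were taken by Pearson r among all genes tested, as a description. For Hspd1 they were Zbtb33 (r = 0.971), E430025E21Rik (0.970), Nckap1 (0.966) and Twsg1 (0.965). For Hsp90aa1 they were Akirin1 (0.926), Ccdc55 (0.907), Kbtbd8 (0.904) and Spag1 (0.903), and for Hspa1b they were Traf2 (0.881), Kbtbd8 (0.840), Muc6 (0.835) and Pogz (0.815). Kbtbd8 was the one gene on 2 of these lists.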

How the data were processed

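RNA from 12 whole liver samples, 3 in each of 4 groups, was sequenced on an Illumina platform, and the authors deposited 1 table of log2 normalized values per gene for all 12 libraries. The submitters' processing notes name the mouse build mm9 and the tools HTSeq, TopHat2, Trim Galore, DESeq2 and DESeq, without versions or settings. Depth is therefore unknown, and no interval for counting error was given.

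The deposited log2 values were analysed as they stand with limma 3.58.1 in R 4.3.3: 1 fit over all 12 libraries and 4 groups with 8 residual degrees of freedom, a variance trend, and Benjamini-Hochberg adjustment over the 12965 genes with a mean of at least 4. For 392 symbols with several rows the row of highest mean was used. A gene was called at an adjusted p under 0.05. Transcript lengths, GC content and shared 50-base words came from GENCODE M21 on GRCm38, and upstream sequences from RefSeq on GRCm38.p6. The members, Hsf1, Hsf2, Fkbp5 and Nr3c1 were named whatever their value, and from each list up to 3 genes with the largest change among those that passed; pattern neighbours are the 4 genes with the highest Pearson r. The members and lists were chosen with earlier results of these data known. Alternatives changed the filter, pseudocount, scaling, variance model, library weights, length and GC trend, replicate block and the libraries included.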

Additional observations from a re-analysis of the deposited data

Results flagged for a closer look

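The difference between the dexamethasone responses of intact and ovariectomized females passed limma's test at an adjusted p under 0.05 in 24.9% of all genes and in 0 of the 10 heat shock members. The inducible members spread widely within groups for their level, which makes a difference harder to call in them. The difference also passed in the genes given here, which the rule took from the lists only among those that passed, so their number says nothing against the members' 0. Values are log2 differences, ovariectomized minus intact. Among proteins that assist HSP90 and HSP70, Fkbp5 had 1.01 (lost in 9 of 22 alternatives, at an adjusted p of 0.105 or less), St13 0.60 and Ptges3 -0.51 (both kept in all 22). Nr3c1, the glucocorticoid receptor, had 0.54 (kept in all 22). Of the HSP70 and J-domain proteins, Hspa1l had -0.54, Hspa4 0.34, Hspa14 0.31, Dnajc5 0.46 and Dnaja2 0.26, the last lost in 8 of 22, Hspa4 in 2 and Hspa1l in 1. Bag4 had 0.27 (lost in 15 of 22) and the small heat shock protein Cryab -0.48 (lost in 12).

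In mitochondria, Clpx had 0.49 (lost in 1 of 22), Trap1, the mitochondrial HSP90, 0.41 and Hscb -0.46 (lost in 11 of 22). In the endoplasmic reticulum, Dnajc3 had 0.49, Dnajb9 0.50 (lost in 10) and Hspa5 0.44 (lost in 15). The prefoldin subunits Pfdn6, Pfdn5 and Pfdn1 had -0.43, -0.42 and -0.23, the last lost in 9 of 22. The immediate early genes Nr4a1, Atf3 and Ier3 had -4.69, -1.98 and -1.72, all 3 kept in 22 of 22 alternatives. What the differences come from was not tested.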

How the results depend on the processing

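With 3 libraries a group, unknown depth and small changes, member counts moved with the settings; the cause was not tested. Main counts were 5 higher and 1 lower (dexamethasone, intact), 1 and 0 (dexamethasone, ovariectomized), 2 and 1 (ovariectomy, vehicle), and 0 and 0 for ovariectomy under dexamethasone and for the difference between responses. For dexamethasone in intact females 2 were higher with no filter, no variance trend or a robust prior, and 3 with a mean of at least 6 (Hspa1a and Hspb1 then fall out of the test), a pseudocount of 8, length and GC trend removed, or only the libraries compared; 0 were lower after quantile normalization and 2 with library weights. In ovariectomized females 5 were higher with library weights, and 1 lower after recentring or quantile normalization. For ovariectomy under vehicle 1 was higher with a mean of at least 6 or the length and GC trend removed, and 0 lower with a robust prior, no variance trend, no filter, only the libraries compared or quantile normalization. Library weights gave 2 higher for ovariectomy under dexamethasone and 1 higher for the difference. The weights ran from 0.33 to 7.25 and were highest for intact dexamethasone replicate 1 (7.25) and ovariectomized vehicle replicate 1 (3.61).

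Leaving out 1 library at a time gave 2 to 4 higher and 1 to 1 lower (dexamethasone, intact), 0 to 2 and 0 to 1 (dexamethasone, ovariectomized), 1 to 2 and 0 to 1 (ovariectomy, vehicle), 0 to 1 and 0 to 0 (ovariectomy, dexamethasone), and 0 to 0 and 0 to 1 (difference). The labels do not say whether replicate numbers pair the samples. Deviations of libraries with the same number had a median r of 0.025, over 0.1 in 6 of 18 pairs. With unlike numbers the median was -0.011, over 0.1 in 10 of 36 pairs. The highest r was 0.40 with the same number and 0.42 with unlike numbers. In 13 of 36 cases a library correlated best with its own number among the 3 libraries of another group. These correlations cannot exclude a weak pairing or one within some groups. With the replicate block, 3 members were higher with dexamethasone in intact females, 2 in ovariectomized females, and 0 lower with ovariectomy under vehicle.

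Signs changed for members near 0. With library weights these were, for dexamethasone in intact females, Hspa1b -0.14 and Hsph1 -0.089, and in ovariectomized females Hspb1 0.12. For ovariectomy under vehicle they were Hsph1 -0.27 and Hsp90aa1 -0.067, and under dexamethasone Hsp90aa1 0.074. For the difference they were Hspa1b 0.26, Dnajb1 0.12, Hspa8 0.16, Hsp90aa1 0.14, Hspe1 0.0011, Bag3 0.12 and Hsf1 0.11. Quantile normalization gave Hspa1b -0.00074 and Hspb1 0.0039 (dexamethasone, ovariectomized), Hspa8 0.0028 (ovariectomy, vehicle), Hspa1a 0.010 and Hspd1 -0.17 (ovariectomy, dexamethasone) and Hspd1 -0.070 (difference). Recentring gave Hspd1 -0.019 and summing the pair gave Hspa1a 0.18 (ovariectomy, dexamethasone). Removing the length and GC trend gave Hspe1 -0.028 (dexamethasone, intact), Hsf2 0.025 and Bag1 -0.012 (ovariectomy, vehicle), and Hspe1 0.11, Bag3 0.044 and Hsf1 0.10 (difference).

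Leaving out 1 library moved Hspa1b from -0.12 to 0.55 and Hsph1 from -0.061 to 0.28 (dexamethasone, intact), and Hspa1b from -0.17 to 0.26 and Hspb1 from -0.36 to 0.28 (dexamethasone, ovariectomized). It moved Hsph1 from -0.22 to 0.18, Hspa8 from -0.11 to 0.020 and Hsp90aa1 from -0.017 to 0.27 (ovariectomy, vehicle), and Hspa1a from -0.38 to 0.10, Hsp90aa1 from -0.090 to 0.054 and Hspd1 from -0.013 to 0.031 (ovariectomy, dexamethasone). For the difference it moved Hspa1b from -0.52 to 0.15, Hsph1 from -0.035 to 0.37, Hspa8 from -0.10 to 0.035 and Bag3 from -0.14 to 0.055. Among genes outside the members it moved Nr3c1 from -0.079 to 0.0082 (dexamethasone, ovariectomized), Hsf2 from -0.11 to 0.0072 (ovariectomy, vehicle) and Hsf1 from -0.12 to 0.020 (difference). Over all single members, 995 values kept direction and call, 74 lost the call, 17 gained it and 54 changed sign. Of the counts over the other lists, 317 of the alternatives moved by over 1.5 times; the mitochondrial chaperones that passed higher in the difference, for example, went from 8 to 2 after quantile normalization. Counts over all genes moved by over 1.5 times mainly for ovariectomy under dexamethasone: 1004 genes higher and 658 lower became 3289 and 2488 with library weights, 400 and 368 after quantile normalization, and 398 and 203 with only the libraries compared. Without 1 library they became 575 and 347 (ovariectomized dexamethasone replicate 1), 204 and 108 (intact dexamethasone replicate 1) and 145 and 62 (ovariectomized dexamethasone replicate 3), and 322 were lower without ovariectomized dexamethasone replicate 2.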
